A study of Mus musculus with 10 samples.

Results

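The genes described here are 34 genes of cholesterol and fatty acid synthesis that are controlled by the sterol regulatory element-binding proteins (SREBPs), or that act beside that pathway. They were taken from a list of gene symbols and found by Ensembl identifier. All 34 were present among the 56748 identifiers counted, and all 34 were among the 15942 genes left for testing after those with few reads were set aside. RNA-seq counts came from beta cells that had been sorted by flow cytometry. The donors were male mice, 6 to 8 weeks old, of the NOD strain, which becomes diabetic through autoimmunity. The islets were cultured whole before dispersal, either with nothing added (untreated 1 to 5, n = 5 libraries) or for 48 hours with 50 ng/ml of lipopolysaccharide (LPS 6 to LPS 10, n = 5 libraries), a component of the bacterial cell wall that is sensed by Toll-like receptor 4. The labels state the 48 hours with the LPS treatment, and they give no other culture time for the untreated islets. The series text calls the 5 samples of a group independent but names no animal behind a library, so p-values measure the spread between these samples.

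SREBPs are membrane-bound transcription factors of the endoplasmic reticulum. When sterols are low, the escort protein SCAP carries them to the Golgi apparatus, where they are cut free to enter the nucleus. When sterols are plentiful, INSIG proteins hold SCAP back. The SREBP-2 form mainly drives the mevalonate and sterol enzymes and the SREBP-1c form mainly drives fatty acid synthesis, so the genes of each branch tend to move together. In beta cells the sterol content of membranes bears on granule formation and on exocytosis of insulin.

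SREBPs act on promoters together with the factor NF-Y, which binds the sequence CCAAT. RefSeq promoter sequences on build GRCm38.p6 were matched by symbol for 27 of the 34 genes. The 250 bases before each start were searched on both strands. At least 1 CCAAT stood there in 15 of the 16 matched mevalonate and sterol enzyme genes and in 6 of the other 11 matched genes, against 40.3% of the tested genes with an entry and 37.5% of all genes in the table. Among the 16 enzyme genes 10 held it more than once, against 14.8% of the tested genes. A form of the sterol response element, TCACNCCAC, was found upstream of Hmgcs1 only, and in 1.2% of the tested genes. The E-box CACGTG stood upstream of 5 of the 27 genes, against 9.67% of the tested genes. None of these motifs is contained in another. Such matches describe the letters in these windows and are not evidence of binding. The 5 matched genes with a single start that had the largest excess in the library LPS 6, described further on, are shown with Cyp46a1, the 1 gene of the list that was called. Each line gives the 220 bases that end just before the start, 5′ to 3′ in the direction of the gene, with CCAAT (or its reverse complement ATTGG) and TCACNCCAC in capitals.
Hmgcs1, chr13:119690131-119690350, plus strand: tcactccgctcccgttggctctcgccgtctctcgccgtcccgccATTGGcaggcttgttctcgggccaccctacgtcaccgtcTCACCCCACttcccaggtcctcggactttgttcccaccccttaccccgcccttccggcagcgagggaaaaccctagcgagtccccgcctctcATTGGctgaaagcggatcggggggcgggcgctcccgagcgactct
Idi1, chr13:8885386-8885605, plus strand: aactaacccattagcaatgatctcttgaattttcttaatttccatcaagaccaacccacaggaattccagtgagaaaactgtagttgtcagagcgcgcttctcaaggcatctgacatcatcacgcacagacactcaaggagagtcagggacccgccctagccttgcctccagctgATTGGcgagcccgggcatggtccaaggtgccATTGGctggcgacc
Sc5d, chr9:42264301-42264520, minus strand: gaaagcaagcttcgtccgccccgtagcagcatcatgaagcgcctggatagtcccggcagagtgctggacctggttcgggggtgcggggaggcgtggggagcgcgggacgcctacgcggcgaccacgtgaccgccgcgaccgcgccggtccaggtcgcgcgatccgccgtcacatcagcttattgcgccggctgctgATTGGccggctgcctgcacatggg
Msmo1, chr8:64733579-64733798, minus strand: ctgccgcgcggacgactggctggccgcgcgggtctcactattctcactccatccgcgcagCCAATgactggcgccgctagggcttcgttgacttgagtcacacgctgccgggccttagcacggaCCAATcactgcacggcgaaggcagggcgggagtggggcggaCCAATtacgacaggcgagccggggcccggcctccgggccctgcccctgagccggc
Insig1, chr5:28071192-28071411, plus strand: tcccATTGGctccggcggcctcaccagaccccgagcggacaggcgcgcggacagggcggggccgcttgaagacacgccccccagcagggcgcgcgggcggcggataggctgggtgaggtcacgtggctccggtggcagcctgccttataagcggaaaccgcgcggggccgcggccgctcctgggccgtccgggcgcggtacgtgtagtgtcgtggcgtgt
Cyp46a1, chr12:108334096-108334315, plus strand: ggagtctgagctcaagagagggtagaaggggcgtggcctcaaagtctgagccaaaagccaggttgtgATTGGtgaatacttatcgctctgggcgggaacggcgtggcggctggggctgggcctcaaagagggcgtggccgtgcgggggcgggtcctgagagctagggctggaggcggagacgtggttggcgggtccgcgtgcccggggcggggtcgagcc

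The Hmgcs1 stretch held the sterol response element and 2 CCAAT boxes. The Msmo1 stretch held 3 CCAAT boxes, that of Idi1 held 2, and those of Sc5d, Insig1 and Cyp46a1 held 1 each. A CCAAT box was therefore present in the gene that was lower with LPS as well as in the uncalled genes shown. It was found in 21 of the 27 matched genes, and not in the uncalled genes Acaca, Acat2, Acly, Elovl6, Fads2 and Scap.

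Total counts assigned to genes ran from 18465188 to 27379892 per library. Levels are given as CPM, counts relative to library size after scaling for composition, and called genes are those with adjusted p below 0.05 in edgeR's quasi-likelihood test across all genes. Beta cell markers were abundant in every library: the summed level of 10 of them was 118300 to 137100 CPM in untreated and 102000 to 134000 CPM in LPS libraries. Of these 10 genes 3 fell with LPS in edgeR's test, the glucose transporter gene Slc2a2 (log2 fold change -0.86), the zinc transporter gene Slc30a8 (-0.59) and Ucn3 (-0.64). Among markers of other cell types, Ppy (pancreatic polypeptide) and Kdr (endothelial) were called lower, and Muc1 (ductal) and Cd68 (macrophage) were called higher. The only other tested macrophage marker, C1qa, went the other way (log2 fold change -0.35) and was not called. The remaining macrophage markers had too few reads to be tested. RNA of other islet cells was present at lower levels, with 5 alpha cell markers at 4984 to 14270 and 4138 to 8931 CPM. Macrophage markers (29.2 to 42.0 and 36.5 to 46.7 CPM for 7 genes) were low, and 4 of the 5 lymphocyte markers had no counts. Sorted cells were measured in bulk, so fewer cells of a type and less RNA per cell cannot be told apart.

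The comparison of LPS with untreated asked whether these genes changed in the presence of LPS. Of the 34 genes, 1 was called, Cyp46a1, which fell, and none was called higher. Over all tested genes 3.77% were called, 2.84% higher and 0.928% lower, so that the count of 1 in 34 (2.94%) was near the background. At an unadjusted p under 0.05 there were 5 of the 34 genes (14.7%, against 15.3% of all genes), 4 of them higher (11.8%, against 8.32%). The groups did not overlap for 1 of the 34 genes, again Cyp46a1, against 5.71% of all tested genes. In the direction of the estimates, 30 of the 34 log2 fold changes were above 0, with a median of 0.13, against 47.9% and a median of -0.0091 over all genes. Without LPS 6 this was 20 of 34 with a median of 0.052, and no gene of the list was called, against 3.2% of all genes.

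**Figure D1:**
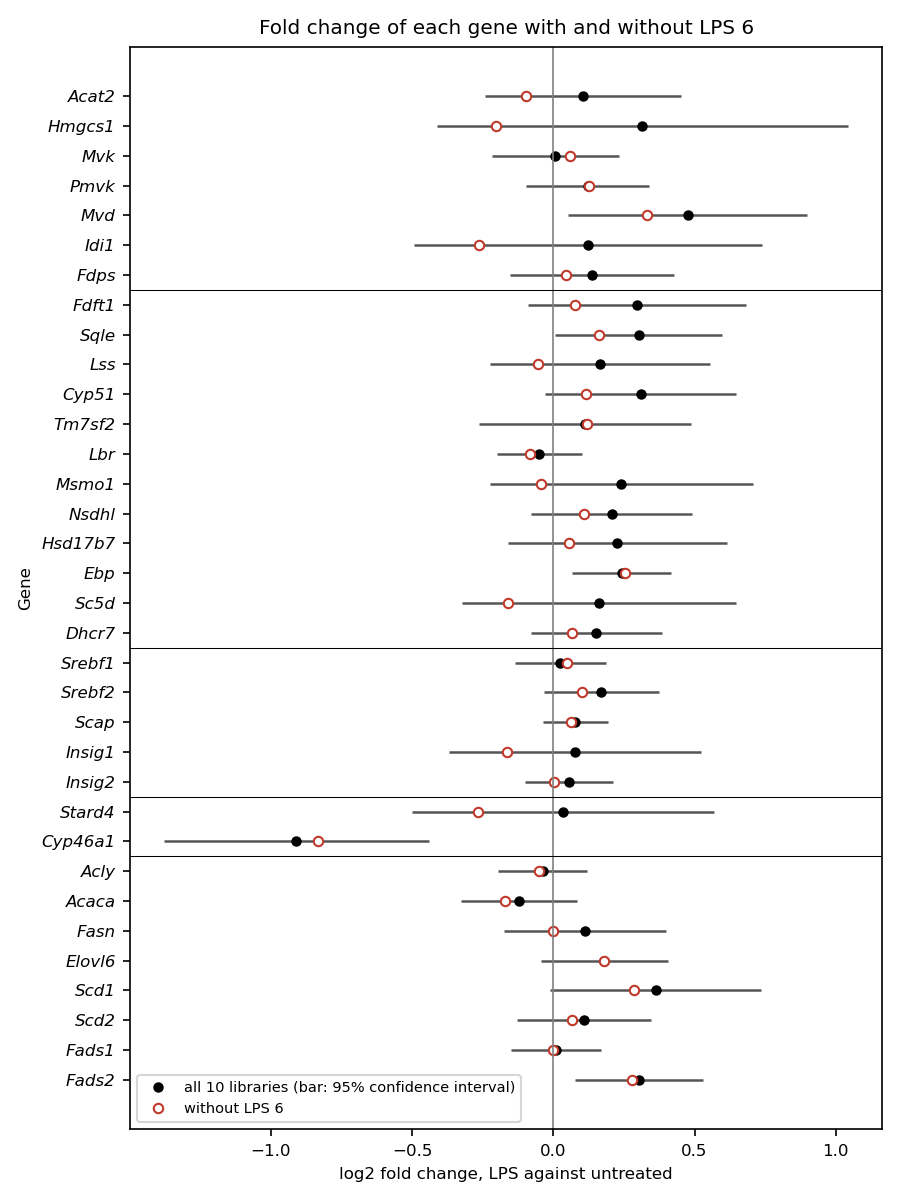
Log2 fold change of LPS against untreated (x axis) for each of the 34 genes (y axis), grouped by role from the mevalonate enzymes at the top to fatty acid synthesis at the bottom. Filled points are from all 10 libraries with 95% confidence intervals, and open points are without LPS 6. The interval of Cyp46a1 lies below 0, while Hmgcs1, Idi1, Sc5d, Insig1 and Stard4 are among the genes that have open points on the other side of 0 from their filled points.

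The enzymes of the mevalonate pathway turn acetyl units into the isoprenoid building blocks of sterols. None of the 7 was called, and their log2 fold changes ran from 0.0072 for Mvk to 0.48 for Mvd. Hmgcs1 (ENSMUSG00000093930), HMG-CoA synthase, stood at 207, 131, 116, 87.5 and 101 CPM in untreated 1 to 5 and at 351, 129, 117, 100.4 and 103 CPM in LPS 6 to 10. LPS 6 was 3.19 times the median of the other LPS libraries and untreated 1 was 1.90 times the median of the other untreated libraries, while the remaining 8 libraries overlapped. The log2 fold change was 0.32 ± 0.34 (SE; 95% confidence interval -0.41 to 1.04; edgeR adjusted p = 0.742), and -0.20 without LPS 6 (-0.63 to 0.23; adjusted p = 0.688). Without LPS 6 and untreated 1 together it was 0.045 (adjusted p = 0.908). The SD of the LPS libraries was 107 CPM with LPS 6 and 13.2 CPM without it. Idi1, the isomerase that makes dimethylallyl diphosphate, was at 28.1, 22.4, 18.5, 11.9 and 18.0 CPM in the untreated and at 41.6, 19.8, 15.3, 15.8 and 15.2 CPM in the LPS libraries. Again LPS 6 and untreated 1 were the highest of their groups, and the log2 fold change of 0.12 became -0.26 without LPS 6. Without both of these libraries it was -0.094.

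Mvd encodes the decarboxylase that yields isopentenyl diphosphate. It had 17.4, 12.4, 10.2, 7.88 and 14.7 CPM in untreated and 23.8, 16.6, 14.8, 17.8 and 14.4 CPM in LPS libraries. Its groups overlapped, with untreated 1 above 3 of the LPS libraries and close to LPS 9, and the log2 fold change of 0.48 ± 0.20 (SE) had an unadjusted p of 0.0301 in edgeR but an adjusted p of 0.256. Pmvk, phosphomevalonate kinase, did not share the pattern of Hmgcs1. It stood at 67.6, 60.0, 60.8, 57.5 and 82.7 CPM in untreated and 68.7, 63.4, 76.7, 68.4 and 80.2 CPM in LPS libraries, with untreated 5 the highest of all. Its log2 fold change was 0.12 (95% confidence interval -0.10 to 0.34; edgeR adjusted p = 0.645). The remaining mevalonate genes were Fdps, farnesyl diphosphate synthase (0.14), Acat2, cytosolic acetoacetyl-CoA thiolase (0.10), and the kinase gene Mvk. Mvk was low in LPS 6, at 0.783 times the median of the other LPS libraries.

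**Figure D2:**
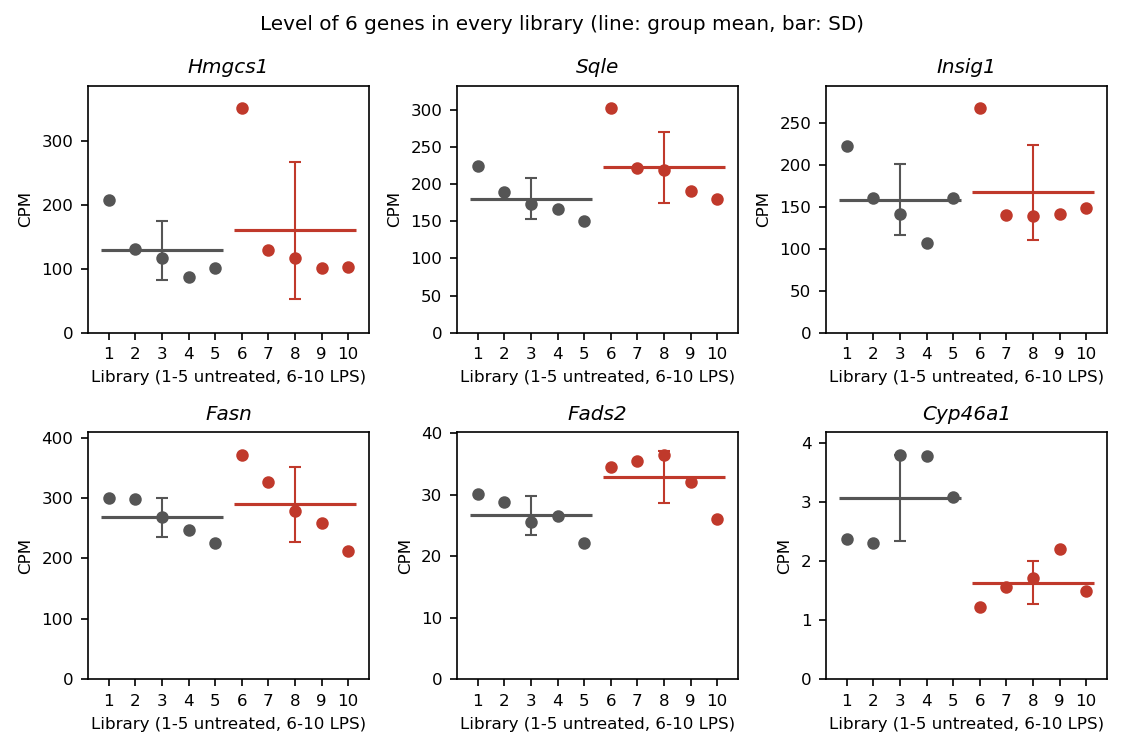
Level in CPM (y axes, from 0) of 6 genes in each of the 10 libraries (x axes), with untreated libraries in grey and LPS libraries in red. Horizontal lines are group means and bars are SD (n = 5). LPS 6 stands alone at the top for Hmgcs1 (351 CPM) and Insig1 (268 CPM), whereas all LPS libraries lie below all untreated libraries for Cyp46a1.

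The enzymes from squalene to cholesterol gave the same picture, with 0 of 12 called and 11 of 12 estimates above 0. Sqle, the squalene epoxidase that is a rate-limiting step of this segment, was at 224, 189.6, 173, 166 and 150.5 CPM in untreated and at 302, 222, 219, 191 and 181 CPM in LPS libraries. All LPS libraries were above the 3 lowest untreated libraries, and untreated 1 was above 4 of the 5 LPS libraries. The log2 fold change was 0.30 ± 0.14 (SE; 95% confidence interval 0.0076 to 0.60), with an edgeR p of 0.0451 before and 0.311 after adjustment. Without LPS 6 it was 0.16 (adjusted p = 0.520), and without LPS 6 and untreated 1 together 0.26 (adjusted p = 0.171). Cyp51, the lanosterol demethylase, was at 239.9, 189, 177, 170.3 and 157 CPM in untreated and 343, 213, 201, 204 and 196 CPM in LPS libraries. LPS 7 to 10 lay within a narrow band, above the 4 lower untreated libraries and below untreated 1. Its log2 fold change of 0.31 (edgeR adjusted p = 0.381) was 0.12 without LPS 6 (0.650) and 0.23 without LPS 6 and untreated 1 (0.103).

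Msmo1, the methylsterol monooxygenase, had 187, 151, 118, 108 and 116 CPM in untreated and 273, 141, 130.5, 126 and 133 CPM in LPS libraries. Sc5d, the sterol C5 desaturase, had 47.5, 37.1, 33.0, 29.3 and 32.1 CPM in untreated and 71.6, 35.0, 34.4, 30.2 and 29.3 CPM in LPS libraries. For both genes LPS 6 was more than 2 times the median of the other LPS libraries (2.07 and 2.22), and the estimate went to the other side of 0 without it (-0.042 and -0.16). Without LPS 6 and untreated 1 together the estimates were 0.11 for Msmo1 and -0.029 for Sc5d. Fdft1, squalene synthase (0.30), Lss, lanosterol synthase (0.17), Hsd17b7 (0.23), Nsdhl (0.21) and Dhcr7, the last enzyme of its branch (0.15), had LPS 6 as their highest library too.

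Ebp, the sterol isomerase, differed from these. It stood at 17.5, 21.6, 20.9, 20.8 and 19.1 CPM in untreated and at 22.5, 24.3, 21.4, 25.0 and 25.0 CPM in LPS libraries, with untreated 1 the lowest library and only LPS 8 within the untreated range. Its log2 fold change was 0.24 ± 0.08 (SE; 95% confidence interval 0.067 to 0.42; edgeR adjusted p = 0.145) and 0.25 without LPS 6 (adjusted p = 0.165). Tm7sf2 and Lbr encode the pair of alternative sterol C14 reductases. They had log2 fold changes of 0.11 and -0.050 and stood in LPS 6 at 0.917 and 1.07 times the median of the other LPS libraries.

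Genes of the SREBP machinery were not called either, 0 of 5. Srebf1 (ENSMUSG00000020538), which gives rise to SREBP-1a and SREBP-1c, was at 244, 262, 258, 214 and 261 CPM in untreated and at 231, 269, 275, 249.5 and 237 CPM in LPS libraries. The groups overlapped throughout, and the interval of the log2 fold change was narrow (0.025, -0.14 to 0.19; edgeR adjusted p = 0.925). Srebf2, the SREBP-2 gene, was at 265, 241, 230.2, 196 and 210.5 CPM in untreated and at 299, 262, 259, 243 and 221 CPM in LPS libraries. It was highest in LPS 6 and second highest in untreated 1, with a log2 fold change of 0.17 (-0.034 to 0.37; adjusted p = 0.437). Scap, the escort protein gene, had 0.078 and Insig2 had 0.055, with adjusted p of 0.552 and 0.794. Insig1 encodes the sterol-sensitive retention protein and is itself an SREBP target. It was at 223, 161, 141, 107 and 161 CPM in untreated and at 268, 140.5, 139, 141 and 149 CPM in LPS libraries. The 4 LPS libraries other than LPS 6 were nearly equal (142 ± 4.28 CPM, SD, n = 4) and lay within the untreated range. Insig1 and Insig2 thus differed in LPS 6, at 1.90 and 1.16 times the median of the other LPS libraries.

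Stard4, a gene of a cytosolic sterol carrier, behaved like the enzymes with 64.3, 49.1, 39.4, 34.6 and 32.7 CPM in untreated and 78.5, 40.4, 41.5, 36.9 and 28.4 CPM in LPS libraries. LPS 6 and untreated 1 were its highest libraries and LPS 10 its lowest, and the log2 fold change was 0.034 ± 0.25 (SE; edgeR adjusted p = 0.970). Cyp46a1 (ENSMUSG00000021259), the cholesterol 24-hydroxylase best known for sterol turnover in neurons, was the low exception. It was at 2.37, 2.31, 3.80, 3.79 and 3.08 CPM in untreated and at 1.22, 1.56, 1.71, 2.20 and 1.49 CPM in LPS libraries. Every LPS library lay below every untreated library, although LPS 9 and untreated 2 were close. The log2 fold change was -0.91 ± 0.22 (SE; 95% confidence interval -1.38 to -0.44; edgeR adjusted p = 0.0331). These levels rest on 25 to 90 reads per library. The call was kept in 3 of the 10 fits that left out 1 library, in each of which the direction was the same (-1.03 to -0.82, adjusted p 0.0269 to 0.102). It was lost without untreated 3, untreated 4, untreated 5, LPS 6 (adjusted p = 0.0713), LPS 7, LPS 8 or LPS 10, and also without LPS 6 and untreated 1 together (0.0538).

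Fatty acid synthesis genes were not called, 0 of 8, and 6 of 8 estimates were above 0. Acly makes cytosolic acetyl-CoA from citrate. It was at 3229.5, 3460.1, 3368, 3017 and 2915 CPM in untreated and 3160.2, 3397, 3146, 3019 and 2859 CPM in LPS libraries, so that both groups covered the same range (log2 fold change -0.037, 95% confidence interval -0.20 to 0.12). Acaca, acetyl-CoA carboxylase 1, had -0.12 and Fasn, fatty acid synthase, had 0.11 (edgeR adjusted p = 0.616 and 0.771). Fasn was at 300.4, 298, 269, 246 and 225 CPM in untreated and 371, 327, 278, 258 and 212 CPM in LPS libraries. The LPS libraries were both above and below the untreated range. The log2 fold change was -0.0020 without LPS 6 and 0.051 without LPS 6 and untreated 1.

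The desaturase genes Scd1 and Fads2 had the largest estimates of this branch, whereas those of Scd2 and Fads1 were smaller than that of the elongase gene Elovl6. Fads2, the delta-6 desaturase of polyunsaturated fatty acids, was at 30.2, 28.8, 25.6, 26.6 and 22.1 CPM in untreated and at 34.4, 35.5, 36.4, 32.0 and 26.0 CPM in LPS libraries. LPS 6 to LPS 9 lay above all untreated libraries and LPS 10 lay inside their range. The log2 fold change was 0.30 ± 0.11 (SE; edgeR adjusted p = 0.162, unadjusted 0.0128). It was 0.28 without LPS 6 and 0.33 without LPS 6 and untreated 1. Fads2 was called without LPS 10 (adjusted p = 0.0448) and in limma-voom with sample quality weights (adjusted p = 0.0429). Scd1, a stearoyl-CoA desaturase, had a log2 fold change of 0.36 ± 0.17 (SE; adjusted p = 0.348), with LPS 10 the lowest of all libraries at 15.9 CPM and the other LPS libraries at 25.1 to 34.0 CPM, above the untreated maximum of 23.8 CPM. It was called without LPS 10 (adjusted p = 0.0485). Scd2 was at 539, 531, 506, 476 and 390.2 CPM in untreated and 576, 597, 540.1, 513 and 406 CPM in LPS libraries, with overlapping groups (0.11, adjusted p = 0.725). Elovl6, a fatty acid elongase, had 0.18 and Fads1, the delta-5 desaturase, had 0.010 (adjusted p = 0.463 and 0.968).

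**Figure D3:**
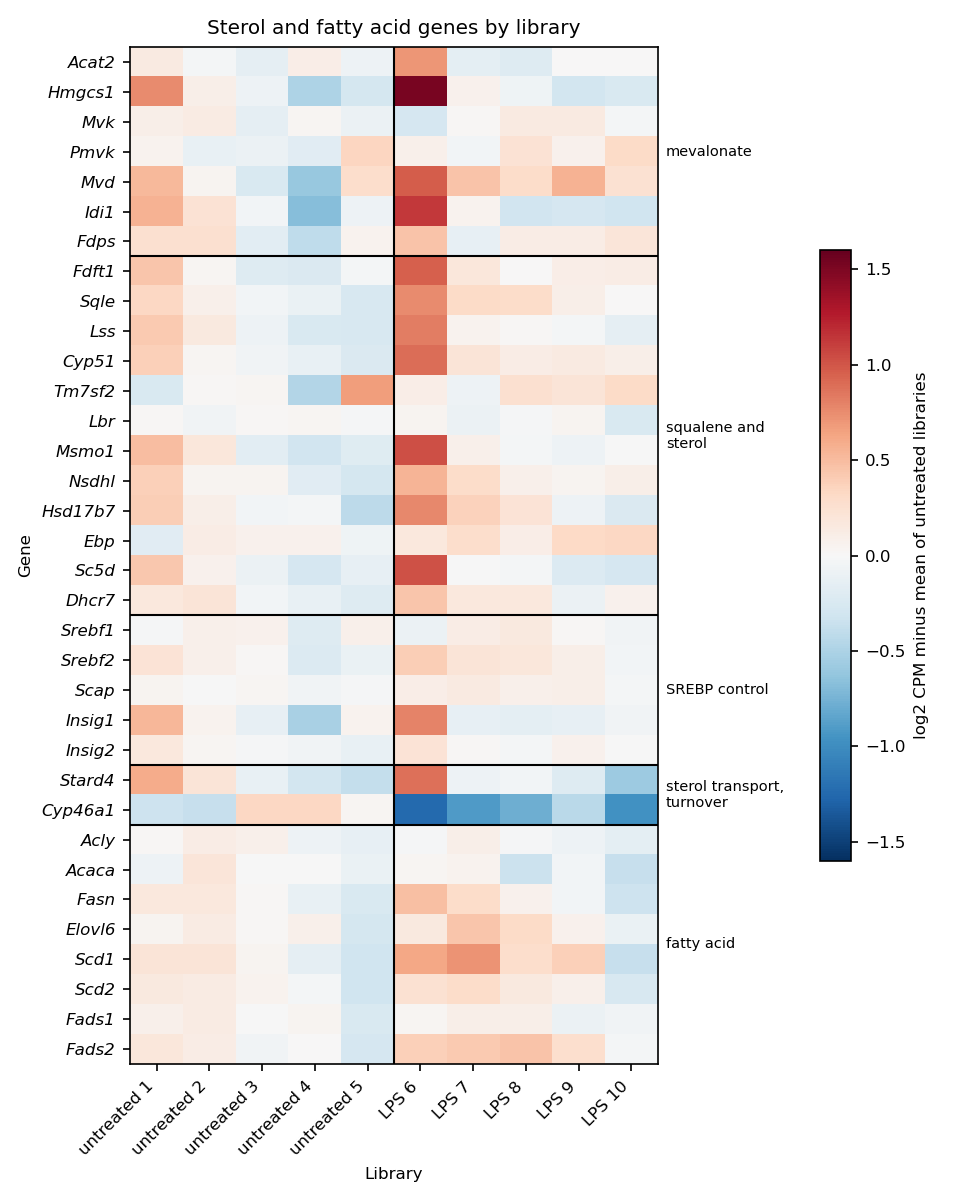
Log2 CPM of each of the 34 genes (rows, grouped by role) in each of the 10 libraries (columns), as the difference from the mean of the untreated libraries, with red for higher and blue for lower. The column of LPS 6 is the reddest for most mevalonate and sterol enzymes, that of untreated 1 is next, and the row of Cyp46a1 is blue in every LPS library.

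Of the 10 libraries LPS 6 stood out most in these genes, and the untreated libraries also differed among themselves. The median of the 34 genes, as log2 CPM relative to the untreated mean, was 0.45 in LPS 6. It was 0.091, 0.088, 0.047 and -0.047 in LPS 7 to LPS 10. In untreated 1 to 5 it was 0.18, 0.091, -0.046, -0.118 and -0.125. For the 12 enzymes from squalene onwards it was 0.76 in LPS 6 and 0.18, 0.094, 0.047 and 0.039 in LPS 7 to LPS 10. In untreated 1 to 5 these enzymes were at 0.38, 0.077, -0.049, -0.15 and -0.20. Without LPS 6 and untreated 1 together, 10 of the 12 estimates were above 0, with a median log2 fold change of 0.15. For the 8 fatty acid genes LPS 7 (0.30) was above LPS 6 (0.20), and LPS 10 (-0.21) and untreated 5 (-0.25) were the lowest. The sterol and fatty acid branches were therefore highest in different LPS libraries. The median over all genes was between -0.0020 and 0.0093 in every library.

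LPS 6 was the highest of the 10 libraries for 20 of the 34 genes (58.8%), against 16.5% of all tested genes. LPS 6 was the highest LPS library and untreated 1 the highest untreated library for 17 of the 34 genes (50%), against 13.5% of all tested genes. The same genes were high in both: the ratio of LPS 6 to the median of LPS 7 to 10 and that of untreated 1 to the median of untreated 2 to 5 had a Pearson r of 0.889 on the log2 scale and a Spearman rho of 0.909 over the 34 genes, which share these libraries and are not independent. A ratio above 1.5, a limit set after the data were seen, was found in LPS 6 for 12 of the 34 genes, against 4.99% of all tested genes. In untreated 1 it was found for 5 of the 34, against 4.32%, and these 5 (Hmgcs1, Stard4, Msmo1, Idi1 and Mvd) were above it in both libraries, against 1.71%. Over all tested genes 689 were above it in untreated 1, and 272 of these were above it in LPS 6 too. High genes were thus shared by these libraries beyond the 34 as well. The correlations were not computed over all genes. The labels do not say whether LPS 6 and untreated 1 shared an animal, a day or a preparation.

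**Figure D4:**
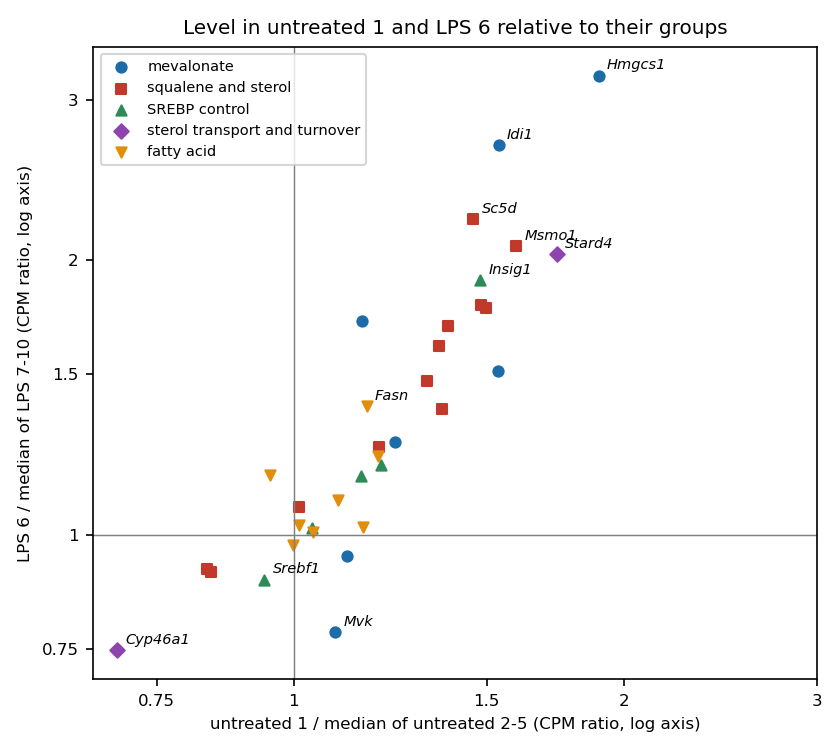
Each point is 1 of the 34 genes, marked by role. The x axis is its CPM in untreated 1 divided by the median of untreated 2 to 5, and the y axis its CPM in LPS 6 divided by the median of LPS 7 to 10, both on log scales. Hmgcs1 is at the upper right (1.90 and 3.19), Cyp46a1 at the lower left (0.691 and 0.747), and most fatty acid genes lie near 1.

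Some other features also set LPS 6 and untreated 1 at the edge of their groups. LPS 6 and untreated 1 had the smallest share of reads outside genes in their groups, 8.84% and 10.3%, against 10.7% to 12.1% in the other LPS and 12.5% to 12.9% in the other untreated libraries. They also had the lowest summed levels of 5 mesenchymal markers (3.17 and 4.47 CPM, within ranges of 3.17 to 25.4 in LPS and 4.47 to 88.9 in untreated) and of 5 endothelial markers (8.84 and 10.3 CPM, within 8.84 to 11.9 and 10.3 to 28.2). Untreated 5 had nearly as little mesenchymal signal as untreated 1 (4.64 CPM). LPS 10 had the next smallest share of reads outside genes among the LPS libraries, 10.7%. The share of counts from mitochondrial genes was also lowest in LPS 6 and untreated 1 within their groups. It was 1.73% in LPS 6 against 1.84% to 2.88% in the other LPS libraries. In untreated 1 it was 2.00%, against 2.06% to 3.22% in the other untreated libraries. LPS 7 (1.845%) and LPS 8 (1.838%) lay below untreated 1 in this share. The TMM scaling factors of LPS 6 and untreated 1 were the lowest, 0.979 and 0.985, against 0.995 to 1.02 in the remaining 8 libraries. Untreated 1 had the highest sum of alpha cell markers (14270 CPM), and LPS 6 was at 7837 CPM, within 4138 to 8931 CPM in its group. The total count of LPS 6 was 20955167, inside the range of its group. The part of these features in the levels of the sterol genes was not tested. Leaving out LPS 6 and untreated 1 together gave no called gene among the 34, against 3.4% of all tested genes, with 25 of 34 estimates above 0 and a median of 0.087.

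Further genes of sterol and lipid metabolism were taken from a second list of 54 genes, of which 52 were tested. Of these 3 were called, 2 higher and 1 lower (5.77%, against 3.77% of all genes). Acat1, the mitochondrial acetoacetyl-CoA thiolase, was at 74.2, 76.1, 67.9, 75.3 and 73.6 CPM in untreated and at 52.8, 57.4, 62.1, 61.9 and 64.4 CPM in LPS libraries. No LPS library reached the untreated range, and the log2 fold change was -0.30 ± 0.07 (SE; edgeR adjusted p = 0.0204; 0.0339 without LPS 6). Its cytosolic counterpart in the mevalonate pathway, Acat2, was not called (0.10, adjusted p = 0.832). Erlin1 encodes a protein of the endoplasmic reticulum membrane that binds cholesterol and restrains SREBP activation. It was at 33.4, 33.9, 31.5, 30.0 and 31.2 CPM in untreated and at 38.9, 42.2, 36.0, 38.6 and 40.1 CPM in LPS libraries, without overlap (0.29 ± 0.06 SE, adjusted p = 0.0210; 0.0439 without LPS 6). Acsl5, a long-chain acyl-CoA synthetase, was at 100.4, 103, 104, 102 and 93.0 CPM in untreated and at 114, 121, 109.5, 119 and 120.0 CPM in LPS libraries, also without overlap (0.22 ± 0.06 SE, adjusted p = 0.0452; 0.0691 without LPS 6).

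The second list had 12 genes of isoprenoid synthesis and SREBP processing (1 higher, 1 lower), 17 of sterol efflux, uptake and turnover (15 tested, none called) and 25 of fatty acid and lipid metabolism (1 higher). The cholesterol 25-hydroxylase gene Ch25h had 0 counts in all libraries. These calls depended on single libraries, with log2 fold changes of the same sign in every fit. That of Acat1 was kept in 7 of 10 fits that left out 1 library and was lost without untreated 2, untreated 4 or LPS 7 (edgeR adjusted p up to 0.0652), and also without LPS 6 and untreated 1 together (0.0580). That of Erlin1 was kept in 6 and was lost without untreated 3, untreated 4, LPS 7 or LPS 9 (up to 0.0788), and also with no filter on low counts (0.0526). That of Acsl5 was lost in all 10 (0.0513 to 0.132) and without LPS 6 and untreated 1 together (0.0788), a fit in which Erlin1 was still called (0.0413). Of the second list 2 genes were called with DESeq2 size factors and 1 with no filter on low counts. The median log2 fold change of the 52 genes was 0.051. LPS 6 was the highest of the 10 libraries for 19 of the 52 (36.5%, against 16.5% of all tested genes). For 15 of the 52 (28.8%, against 13.5%) LPS 6 was the highest LPS library and untreated 1 the highest untreated library.

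Reads that fit more than 1 gene were set aside in counting as ambiguous, 1.4% to 1.61% of the reads of a library. Strand use in counting is not given, so how reads were assigned where genes overlap on opposite strands is not known. By the GENCODE M21 annotation of build GRCm38, exons of 6 of the 34 genes overlap those of another protein-coding gene. On opposite strands these are Cyp51 (Akap9), Fdft1 (Ctsb), Lbr (Dnah14) and Srebf1 (Rai1). On the same strand, where strand use has no bearing, they are Fdps (Gm43738) and Tm7sf2 (Vps51). Exons of Hmgcs1, Idi1, Lss, Elovl6, Scap and Scd2 overlap only exons of genes that are not protein-coding, on the opposite strand except for Scd2. The levels of these 12 genes are uncertain to that extent. Reads without a unique alignment were also set aside, 4.89% to 6.1% of the reads of a library. Reads shared by Acat2 and its near-identical copy Acat3 could therefore be missing from both. Acat3 had 21 reads over all libraries, which does not measure that loss. The same applies to Scd1 and Scd2 with Scd3 (1022 reads) and Scd4 (120 reads).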

How the data were processed

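Per the submitters' processing notes, FastQC, Trimmomatic, STAR, SAMtools, HTSeq and DESeq2 were used with build GRCm39. Versions, annotation release and strand setting are not stated in the labels or file headers. The authors deposited raw counts per Ensembl gene, 1 table for each of the 10 libraries, and the summary lines of each table that name no gene were left out (reads outside genes 8.84% to 12.9% of all). Groups and numbers came from the sample titles, and the groups share no replicate number, so no block was fitted. Of 56748 identifiers, 52073 matched a symbol.

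Genes were filtered with filterByExpr (minimum count 10, minimum total 15), scaled by TMM and tested across all genes with edgeR 4.0.16 in R 4.3.3 (quasi-likelihood F test, Benjamini-Hochberg over 15942 genes, threshold 0.05). Standard errors come from the fold change and its F statistic, and 95% intervals from the test's degrees of freedom. Log2 CPM used a prior count of 2. DESeq2 1.42.0, limma-voom (limma 3.58.1) with sample quality weights, DESeq2 size factors, no filter, a filter at 1 CPM in 5 libraries and leaving out each library were alternatives. The fit without LPS 6 and untreated 1 was chosen after seeing the data. The script was tested on simulated data. Libraries of a group differed by more than sampling noise (chi-square per gene at least 6.16), and none was treated as a repeat deposit of another. That does not show that they came from separate animals.

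The genes and lists were chosen with earlier results of these data known. Values in every library are given for the genes called or at an unadjusted p under 0.05 and for the 2 most abundant of each role. Idi1, Msmo1, Sc5d, Insig1, Fasn and the range of Scd1 were added after their values were seen. Of the second list the called genes are named, and Ch25h was added. Figures used Python 3.11.15, pandas 2.3.3 and matplotlib 3.10.9.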

Additional observations from a re-analysis of the deposited data

Results flagged for a closer look

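In 10 of 74 groups of 5 libraries, 1 library lay further from the rest than Dixon's test at the 95% level allows, and in all 10 this was LPS 6 on the high side. LPS 6 had been singled out before these groups were examined, and the genes are not independent of each other. A group here is the 5 untreated or the 5 LPS values of 1 gene. The share of groups flagged over all tested genes was not computed, so the count has no background beside it. The count therefore describes LPS 6 and is not a test against chance. The mevalonate genes were Hmgcs1 at 351 CPM in LPS 6, Idi1 at 41.6 CPM and Acat2 at 15.7 CPM. The enzymes from squalene onwards were Cyp51 at 343 CPM, Msmo1 at 273 CPM, Lss at 190.1 CPM, Fdft1 at 156 CPM and Sc5d at 71.6 CPM. Insig1 at 268 CPM and the sterol carrier gene Stard4 at 78.5 CPM completed them. No untreated library was flagged, although untreated 1 was the highest of its group for all 10 of these genes, and no fatty acid gene was flagged.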

How the results depend on the processing

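No paired analysis was possible because the groups share no replicate number. Across all genes 601 were called in edgeR, 941 in DESeq2 and 994 in limma-voom with sample quality weights, and 401 to 624 with 1 library left out. Of the 34 genes 1 was called in edgeR and in DESeq2, 2 in limma-voom (1 higher, Fads2) and 0 without LPS 6 and untreated 1 (0 lower). With 1 library left out 0 to 2 were called, 0 to 2 higher and 0 to 1 lower, the 2 higher genes being Fads2 and Scd1 without LPS 10. The groups did not overlap for 1 to 4 of the 34 genes in these fits, where fewer libraries make separation easier. The share of all tested genes without overlap was not computed for these fits. Without LPS 6 DESeq2 called 1 of the 34 and edgeR none. Of the further genes 3 were called in edgeR, 2 with DESeq2 size factors, 1 with no filter on low counts, 5 in DESeq2 and 4 in limma-voom. There was 1 without LPS 6 and untreated 1, and 0 to 2 with 1 library left out.

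The median log2 fold change of the 34 genes stayed above 0 in each alternative run (0.052 to 0.20 with 1 library left out). Among single genes 521 comparisons with an alternative kept direction and call, 38 reversed, 30 lost a call and 3 gained one. In limma-voom the log2 fold changes that changed sign were Acat2 -0.0018, Idi1 -0.093, Sc5d -0.0015, Insig1 -0.0046, Stard4 -0.080, Fads1 -0.014, and without LPS 6 and untreated 1 they were Acat2 -0.051, Idi1 -0.094, Sc5d -0.029, Insig1 -0.0030, Stard4 -0.083. With a filter at 1 CPM Mvk was at -9.74e-05. With 1 library left out the genes that changed sign ranged as Acat2 -0.098 to 0.17, Hmgcs1 -0.20 to 0.55, Mvk -0.035 to 0.061, Idi1 -0.26 to 0.28, Lss -0.053 to 0.29, Msmo1 -0.042 to 0.38, Sc5d -0.16 to 0.29, Srebf1 -0.024 to 0.047, Insig1 -0.17 to 0.23, Stard4 -0.27 to 0.21, Fasn -0.0020 to 0.20, Fads1 -0.045 to 0.044. The cause was not tested. Cyp46a1 has 552 reads in all, and whether depth has a part in its lost calls was not tested.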

Other observations

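The lipin genes Lpin1 and Lpin2 encode phosphatidate phosphatases of glycerolipid synthesis, and were singled out after their values were seen. Both had the same high libraries as Hmgcs1. Lpin1 was at 209, 136, 132, 109 and 103 CPM in untreated 1 to 5 and at 346, 132, 133, 113 and 106 CPM in LPS 6 to LPS 10. LPS 6 was 2.82 times the median of the other LPS libraries, and untreated 1 was 1.73 times that of the other untreated libraries. The log2 fold change of Lpin1 was 0.27 (edgeR adjusted p = 0.757) with all libraries and -0.19 without LPS 6. It was 0.016 without LPS 6 and untreated 1 together. Lpin2 was at 56.9, 40.9, 42.1, 37.0 and 31.0 CPM in untreated and at 67.7, 37.5, 36.8, 34.4 and 26.4 CPM in LPS libraries, with ratios of 1.90 in LPS 6 and 1.46 in untreated 1. Its log2 fold change was -0.037 with all libraries, -0.31 without LPS 6 and -0.16 without LPS 6 and untreated 1 together.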
